A study of Homo sapiens with 2 samples.

Results

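The 10 genes described here encode receptors for viral or misplaced nucleic acids, the adaptors and kinase that carry their signal, and the interferon regulatory factors (IRFs) that receive it. They are IFIH1, DHX58, CGAS, TLR3, MAVS, STING1, TBK1, IRF1, IRF3 and IRF7, of 19735 genes named on the array, and they were chosen as a named list with their values in these data known. All probe sets annotated to one of these symbols alone were taken, 21 in all. Gene expression was measured in HARA-B4, a highly bone-metastatic subline, and in HARA, the parental human squamous cell lung cancer line. Both were grown in RPMI medium with fetal bovine serum, penicillin and streptomycin, with no other treatment given in the labels, and total RNA of each was hybridised to 1 Affymetrix array. There were no replicates, so every value below describes 1 array of 1 subline against 1 array of its parent, with no p-value and no biological spread. The values were also what the genes were chosen on, so they are given as a description.

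A cell that meets foreign RNA in its cytosol detects it with helicases of the RIG-I-like family, which engage the mitochondrial adaptor MAVS. Cytosolic DNA is detected by the enzyme cGAS, whose product cGAMP binds the adaptor STING, and double-stranded RNA inside endosomes by the receptor TLR3. These routes meet at the kinase TBK1, which activates IRF3 and IRF7, and these factors drive interferon genes and a set of antiviral genes. Epithelial cells, from which squamous cancers arise, carry these routes, and several of the sensors are themselves induced by interferon.

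A probe set was taken as above background at a signal of 27.1 or more, the 95th percentile over both arrays of 165 probe sets for olfactory, taste and vomeronasal receptors. Each gene was read by its brightest probe set (mean log2 signal over both arrays), and 2-fold was the size at which it was called higher or lower in HARA-B4. Where 1 array lay below background, its value was set to that level and the fold is a lower bound. Of all genes, 11489 were above background on at least 1 array, and 3.62% of them were called higher and 4.20% lower. Probe set signals had a median of 16.2 in HARA-B4 and 17.3 in HARA. The 6 squamous markers measured were all above background on both arrays, at signals from 543 to 7345 in HARA-B4 and from 191 to 4723 in HARA. Among them the desmosomal plakophilin PKP1 was called higher, at 672 in HARA-B4 and 191 in HARA (log2 difference 1.82). Of 8 blood and myeloid markers, 3 were above background on at least 1 array, none brighter than 33.9 in HARA-B4 or 35.7 in HARA, and the leukocyte marker PTPRC and the monocyte marker CD14 were below it on both. Of 6 fibroblast markers only THY1 passed, at a signal of 23.8 in HARA-B4 and 63.8 in HARA.

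Among the sensors and IRFs, IFIH1 was called higher in HARA-B4 and TLR3 lower. The double-stranded RNA sensor IFIH1 was 34.6-fold higher by 1 of its probe sets and nearly level by another. TLR3 was at least 2.72-fold lower. The other 7 genes above background had differences between -0.52 and 0.19 on the log2 scale, 4 negative and 3 positive, and DHX58 was below background on both arrays. The count of 1 higher and 1 lower in 9 genes above background stands beside the shares of 3.62% and 4.20% over all genes, and nothing is read from it because these values chose the list. The median log2 difference was -0.05 over the 9 genes and 0.01 over all 11489.

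**Figure D1:**
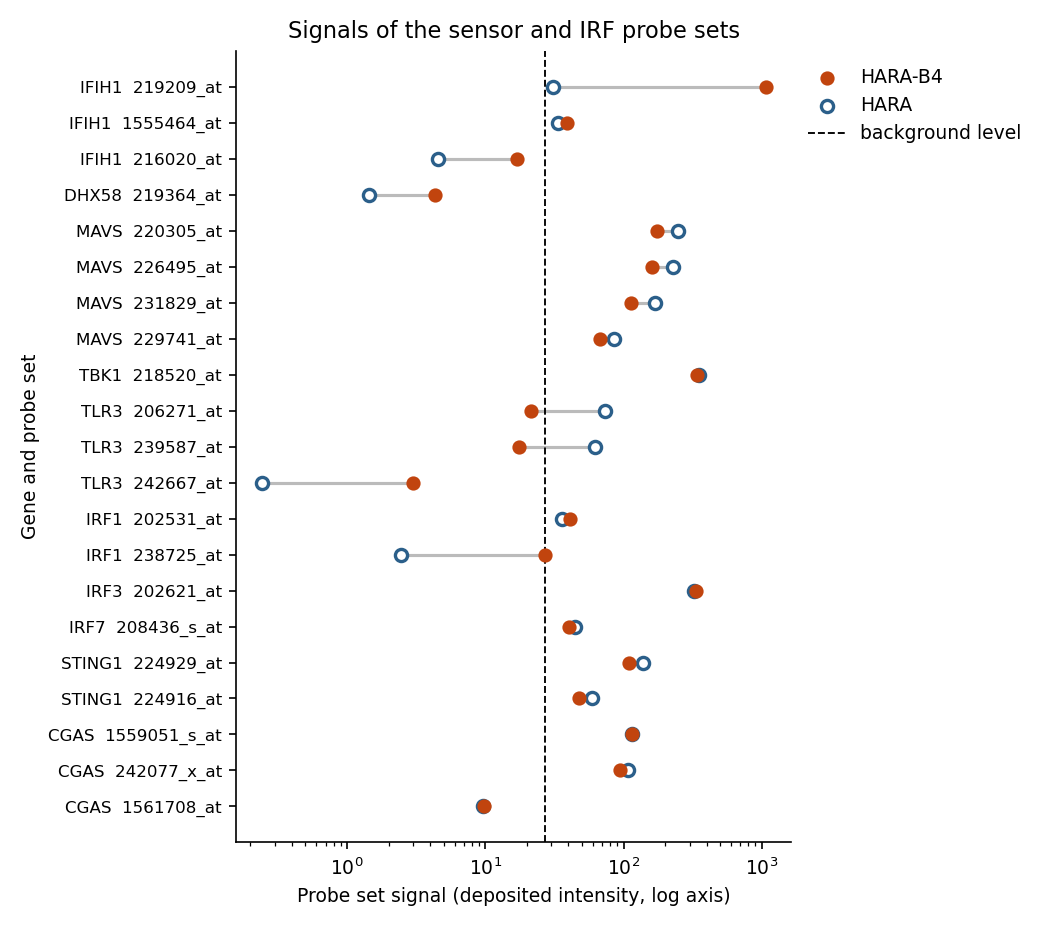
Signal of each of the 21 probe sets in HARA-B4 (filled) and HARA (open) on a log axis, 1 array each, with the background level of 27.1 dashed. IFIH1 219209_at stands at 1066 in HARA-B4 against 30.8 in HARA, while the first and second probe sets of TLR3 lie above background in HARA only.

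IFIH1 encodes MDA5, the RIG-I-like helicase that senses long double-stranded RNA. Probe set 219209_at, annotated to the RefSeq messenger RNA of the gene, had a signal of 1066 in HARA-B4 and 30.8 in HARA, a log2 difference of 5.11. No other of the 10202 genes above background on both arrays differed by as much in the same direction. That comparison leaves out genes below background in HARA, such as TM4SF1, at 576 in HARA-B4 and 16.5 in HARA. The HARA signal was just above the background level, so the fold rests on a dim denominator.

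The second IFIH1 probe set did not share that difference. Probe set 1555464_at, annotated to another sequence record, had a signal of 39.2 in HARA-B4 and 33.4 in HARA, a log2 difference of 0.23. The third, 216020_at, was at 16.9 in HARA-B4 and 4.59 in HARA, below background on both arrays, so no fold is given for it. In HARA all of these values were near or under background, and in HARA-B4 a single one was bright. The sources used here do not say which transcripts or exons each probe set reads.

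This disagreement was set against that in other genes. In 4830 genes with more than 1 probe set above background on both arrays, the gap between the largest and the smallest log2 difference of a gene had a median of 0.32 and a 95th percentile of 1.02. The gap of IFIH1 was 4.88, the widest of them, and the next was 2.66, for IGSF3. A gap of 1 or more was found in 262 of these genes (5.42%) and of 3 or more in 1. Pooled over these genes, probe sets of 1 gene had an SD of 0.30 in their log2 differences. That SD may hold differences between transcripts as well as technical error, and it says nothing of the spread between cultures. The other members that could be compared this way had gaps below the median of 0.32, at 0.24 in MAVS, 0.19 in CGAS and 0.02 in STING1. The values of IFIH1 were known when it was chosen, so its place among the gaps is only a description. Probe sets below background on either array were left out of the gaps.

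**Figure D2:**
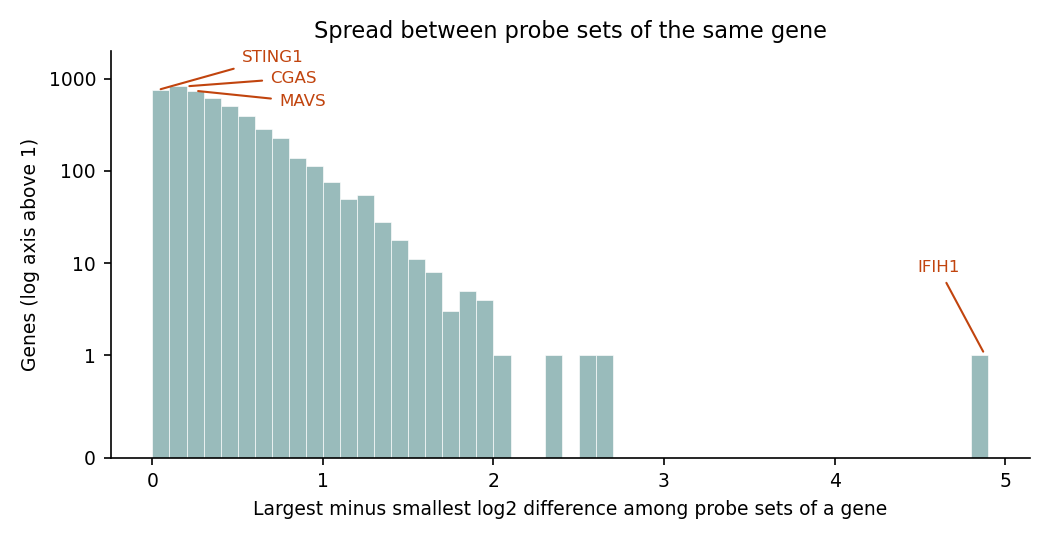
Number of genes (log axis above 1) by the gap between the largest and smallest log2 difference, HARA-B4 minus HARA, among their probe sets above background on both arrays, in 4830 genes. IFIH1 stands alone at 4.88, while MAVS, CGAS and STING1 lie at 0.24 or less.

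The upstream sequence of IFIH1 is shown because several of the genes in this pathway are known interferon targets. It comes from RefSeq, build GRCh38.p14, and sequences were found there for 5 of the 10 genes. It spans chr2:162318675-162318934 on the minus strand, from 250 bases before the gene's start through the first 10 bases after it. Capitals mark matches to the core of the interferon-stimulated response element, written as GAAA, any 2 bases and GAAA again, and searched on both strands.
IFIH1: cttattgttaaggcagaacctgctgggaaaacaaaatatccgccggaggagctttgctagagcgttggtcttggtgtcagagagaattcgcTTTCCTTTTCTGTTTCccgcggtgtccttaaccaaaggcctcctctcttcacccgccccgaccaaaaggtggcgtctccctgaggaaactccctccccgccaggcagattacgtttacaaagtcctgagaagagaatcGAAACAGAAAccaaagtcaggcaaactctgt
Matches ran from -159 to -150, from -153 to -144 and from -21 to -12, counting the start base as 0, and the first and second of these overlap. Of 35116 promoter windows of 300 bases, 3.57% held at least 1 such match. A match is a description of letters and shows no binding.

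The genes whose signals lay nearest to those of IFIH1 219209_at on both arrays were TMPRSS15, IFI27 and TM4SF1, by Euclidean distance in 2 log2 values. TMPRSS15, the nearest, was at 717 in HARA-B4 and 24.8 in HARA, and TM4SF1 was at 576 in HARA-B4 and 16.5 in HARA. Both were below background in HARA. IFI27, an interferon-induced gene, was the nearest one above background on both arrays, with a signal of 1066 in HARA-B4 and 55.9 in HARA. Signals of different probe sets do not compare levels between genes, so this describes only where the values lay on the 2 arrays.

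DHX58 encodes LGP2, the RIG-I-like helicase without signalling domains that modulates MDA5. Its single probe set had a signal of 4.33 in HARA-B4 and 1.45 in HARA, both below background, so it gives no fold. The third helicase of the family, RIGI, which senses RNA with 5' phosphates, had 108 in HARA-B4 and 82.0 in HARA, a log2 difference of 0.39 (named after its values were seen). Its other probe sets differed by 0.35 and 0.57. The helicases thus gave values of different kinds, one far above 2-fold by a single probe set, one not above background and one under 2-fold by all of its probe sets.

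TLR3, the endosomal receptor for double-stranded RNA, was dimmer in HARA-B4 by both of its probe sets that passed background. Probe set 206271_at, annotated to the RefSeq messenger RNA, was at 21.5 in HARA-B4 and 73.8 in HARA, at least 2.72-fold lower in HARA-B4. Probe set 239587_at was at 17.5 in HARA-B4 and 62.7 in HARA, at least 2.31-fold lower. The values lay below background in HARA-B4 and above it in HARA each time. The third probe set, 242667_at, was below background on both arrays, at 2.997 in HARA-B4 and 0.242 in HARA. In these bulk samples, fewer cells with the transcript and less of it per cell cannot be told apart, and this holds for every gene here.

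**Figure D3:**
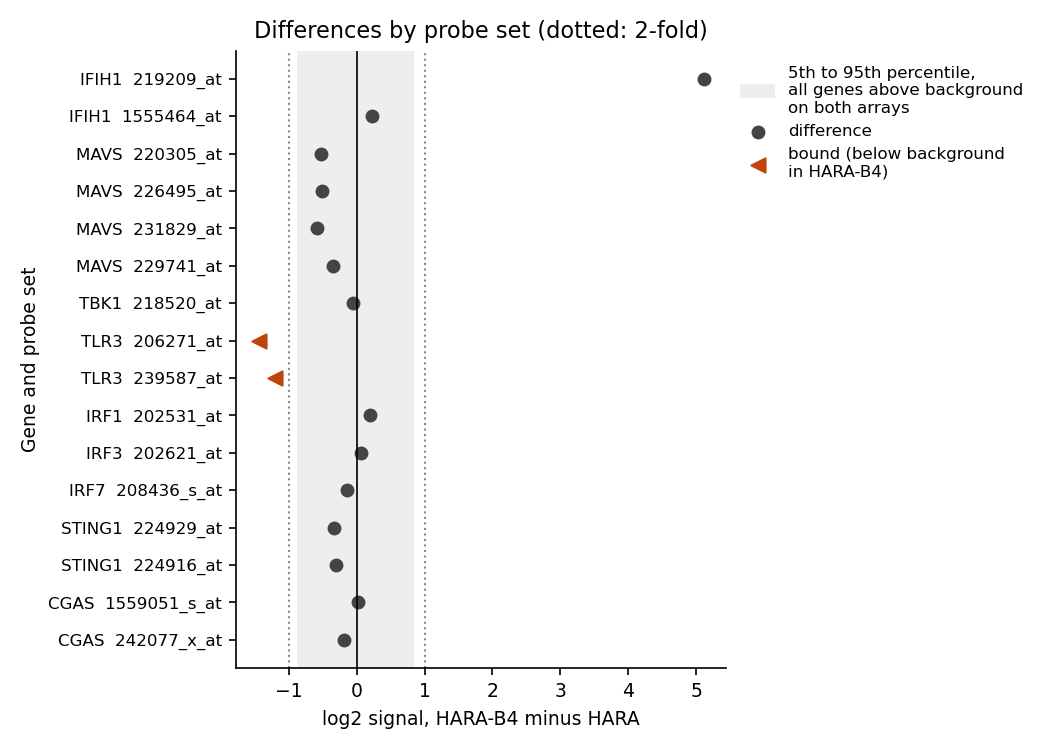
Difference in log2 signal, HARA-B4 minus HARA, for the 16 probe sets above background on at least 1 array, with 2-fold as dotted lines and the 5th to 95th percentile of all genes above background on both arrays (-0.86 to 0.83) in grey. IFIH1 219209_at is at 5.11 with its second probe set at 0.23, the TLR3 bounds are at -1.44 and -1.21, and all other points lie inside the grey band.

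The TLR3 promoter is shown for comparison with that of IFIH1, since the genes differed in opposite directions. It lies on the plus strand at chr4:186068906-186069165 of GRCh38.p14 and covers the same stretch around the start. Capitals mark, in order, the TTCNNNGAA motif (gamma-activated site, which reads alike on both strands) in the first and second places and the response element core, on the opposite strand, in the third.
TLR3: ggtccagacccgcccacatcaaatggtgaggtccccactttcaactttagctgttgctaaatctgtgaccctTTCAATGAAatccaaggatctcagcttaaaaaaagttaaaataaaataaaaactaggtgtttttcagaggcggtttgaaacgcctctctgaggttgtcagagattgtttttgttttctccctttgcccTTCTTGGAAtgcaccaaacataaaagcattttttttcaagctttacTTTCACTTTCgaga
The match to that core ran from -4 to 5, across the start base, and the TTCNNNGAA matches from -178 to -170 and from -50 to -42. The TTCNNNGAA motif was found in 7.66% of the 35116 windows. Both IFIH1 and TLR3 therefore held a match to the response element core. The other members with a sequence, MAVS, TBK1 and IRF1, held none in their 300 bases. No sequence was found for DHX58, CGAS, STING1, IRF3 and IRF7. The matches therefore cannot be compared between the called members and the rest.

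CGAS, the enzyme that makes cGAMP when it binds cytosolic DNA, was level. Probe set 1559051_s_at had a signal of 115.4 in HARA-B4 and 114.5 in HARA, a log2 difference of 0.01. Probe set 242077_x_at was at 94.4 in HARA-B4 and 107 in HARA, a difference of -0.18. Probe sets with these endings can match several transcripts or genes. The third CGAS probe set was below background on both arrays.

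STING1, the adaptor of the endoplasmic reticulum that binds cGAMP, was slightly dimmer in HARA-B4 by both probe sets. Probe set 224929_at was at 110 in HARA-B4 and 139 in HARA, a log2 difference of -0.33. Probe set 224916_at was at 47.5 in HARA-B4 and 58.8 in HARA, a difference of -0.31. The probe sets differed from each other by 0.02, and neither reached 2-fold.

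MAVS, the adaptor on mitochondria that the RIG-I-like helicases engage, was dimmer in HARA-B4 by all 4 of its probe sets. The brightest, 220305_at, was at 174 in HARA-B4 and 250 in HARA, a log2 difference of -0.52. The others, 226495_at, 231829_at and 229741_at, were at 161, 113 and 67.4 in HARA-B4 against 229, 169 and 85.5 in HARA. Their differences were -0.51, -0.59 and -0.34, so no probe set reached 2-fold and the probe sets differed little from each other. Of the 10202 genes above background on both arrays, 1243 had a difference as low as that of MAVS or lower.

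TBK1, the kinase on which these routes meet, was at 337 in HARA-B4 and 350 in HARA, a log2 difference of -0.05 by its only probe set. IRF3, the factor that TBK1 activates, was at 337 in HARA-B4 and 323 in HARA, a difference of 0.06. Both sat in the middle of the distribution over all genes above background on both arrays, whose 25th and 75th percentiles were -0.27 and 0.28.

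IRF7, the interferon-inducible factor that amplifies interferon-alpha production, was at 40.2 in HARA-B4 and 44.4 in HARA, a log2 difference of -0.14. IRF1, an early target of interferon-gamma signalling, was at 41.1 in HARA-B4 and 35.9 in HARA by probe set 202531_at, a difference of 0.19. Both genes were dim. A second IRF1 probe set, 238725_at, was at 26.9 in HARA-B4 and 2.44 in HARA. Its HARA-B4 value fell just short of the background level of 27.1, so it was counted as below background on both arrays and gives no fold.

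The upstream sequence of IRF1 is shown for its single TTCNNNGAA match, in capitals, from -124 to -116. It lies on the minus strand at chr5:132490764-132491023 of GRCh38.p14 and covers the same stretch as the sequences above.
IRF1: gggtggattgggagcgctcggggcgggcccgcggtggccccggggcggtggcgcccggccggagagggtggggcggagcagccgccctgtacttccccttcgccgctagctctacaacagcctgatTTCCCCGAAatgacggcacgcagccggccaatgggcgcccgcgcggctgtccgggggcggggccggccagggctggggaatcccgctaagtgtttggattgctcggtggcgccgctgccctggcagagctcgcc
The gene itself did not reach 2-fold in either direction.

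The rest of the pathway was described from 6 lists of genes, of which 68 were measured and 43 were above background on at least 1 array. Of these 43, 5 were called higher in HARA-B4 and 0 lower, where 3.62% of all 11489 genes were called higher and 4.20% lower. Their median log2 difference was 0.01, the same to 2 decimals as over all genes. The list of IRF3 and interferon output gave 4, from 5 genes above background, and the list of other nucleic acid sensors gave 1, from 7. Of the 4, IFIT2 passed background through HARA-B4 alone.

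The output list had a median of 1.59. IFIT1, an antiviral protein that binds foreign messenger RNA, was at 293 in HARA-B4 and 94.2 in HARA (log2 difference 1.64). Its relative IFIT3 was at 233 in HARA-B4 and 77.3 in HARA (1.59), with another probe set at 0.77. ISG15, the ubiquitin-like modifier, was at 521 in HARA-B4 and 225 in HARA (1.21). IFIT2, of the same family, was at 112 in HARA-B4 and 23.0 in HARA, and its other probe set differed by 0.47. The remaining gene above background, MX1, was at 43.7 in HARA-B4 and 33.5 in HARA (0.38, named after its value was seen). Not above background on either array were CXCL10, CXCL11, CCL5, RSAD2 and IFI44L, which are also known targets.

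No interferon gene passed background. The 8 measured, IFNB1, IFNA1, IFNA2, IFNE, IFNK, IFNL1, IFNL2 and IFNG, had signals from 0.471 to 23.7 in HARA-B4 and from 0.476 to 12.1 in HARA. The arrays therefore give no fold for any of them.

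Of 7 other nucleic acid sensors above background, OASL, an oligoadenylate synthetase-like protein, was the one called, at 127 in HARA-B4 and 35.4 in HARA. Both of its probe sets differed by 1.84. The median of that list was 0.11. The sensors TLR7, TLR8, TLR9, AIM2 and ZBP1, typical of immune cells, and OAS1 and OAS2 were below background on both arrays.

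Adaptors and kinases, other IRF genes and genes that restrain sensing gave no call. In 13 adaptors and kinases the median was -0.17 and the range -0.68 to 0.91. The brightest were the helicase DDX3X (0.26) and RNF135, a ubiquitin ligase of RIG-I (-0.37). The lowest was TICAM1, the adaptor through which TLR3 signals, at 39.7 in HARA-B4 and 63.4 in HARA (-0.68, named after its value was seen). The highest was AZI2, at 311 in HARA-B4 and 166 in HARA (0.91, also named after its value was seen). The AZI2 probe sets above background ranged from -0.32 to 0.91. In 6 other IRF genes and IRF2-binding proteins the median was -0.15, with IRF2BP2 at -0.09 and IRF2BPL at -0.24. Probe sets of IRF2BP2 above background ranged from -0.84 to 0.22. In 12 restraining genes the median was -0.15 and the range -0.88 to 0.20. The lowest was NLRX1, a mitochondrial relative of the NOD-like receptors (-0.88, named after its value was seen). CYLD, a deubiquitinase also named after its values were seen, had -1.06 by 1 probe set and -0.66 by its main one. The brightest were PCBP2, which promotes breakdown of MAVS (0.02), and BANF1, a chromatin protein that keeps cGAS off nuclear DNA (0.09). Probe sets of PCBP2 above background ranged from -0.51 to 0.29.

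**Figure D4:**
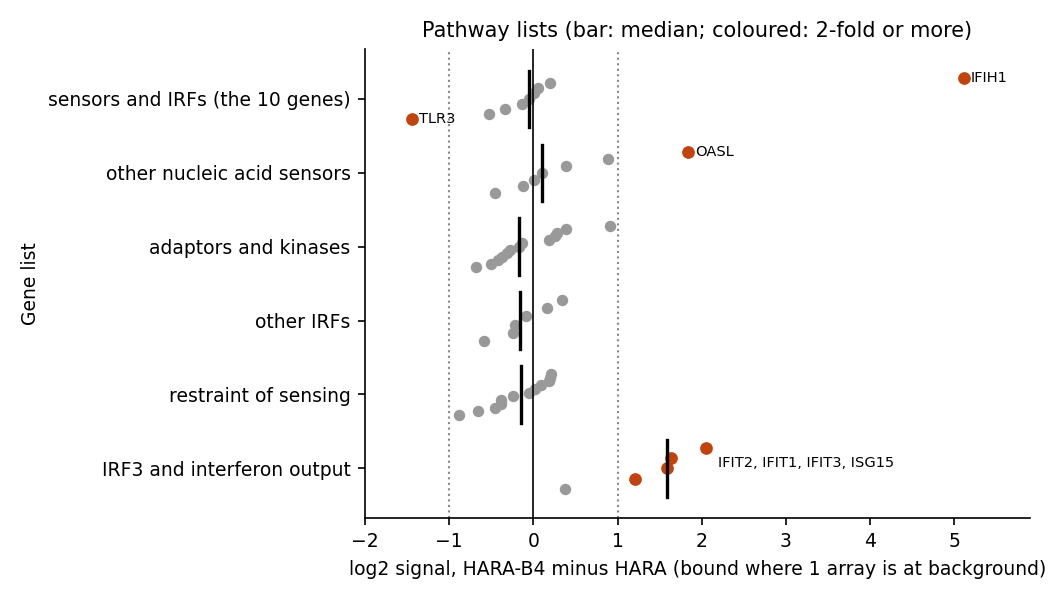
Difference in log2 signal, HARA-B4 minus HARA, of each gene above background on at least 1 array, by list, with the list median as a bar and 2-fold as dotted lines. The output list lies to the right with a median of 1.59, and the adaptors, other IRFs and restraining genes all lie inside 2-fold.

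The neighbours of the members in RefSeq gene order were then read, 5 protein-coding genes with a probe set on each side, an analysis chosen after the values were seen. On chromosome 2, FAP lies next to IFIH1. FAP, a membrane serine protease of activated fibroblasts, was at 155 in HARA-B4 and 1.76 in HARA, at least 5.70-fold higher in HARA-B4. The gene on the other side, GCA, was at 277 in HARA-B4 and 264 in HARA (0.07). COBLL1, the fifth on that side, was lower in HARA-B4, at 397 against 1122 in HARA (-1.498). FIGN was above background in HARA-B4 only, at 33.8 against 14.7 in HARA, at least 1.25-fold higher. Of the 6 genes of this stretch above background, IFIH1 and FAP were called higher at 2-fold, and the bound of FIGN does not settle whether it reached it. Of the 6 fibroblast markers, COL1A2, COL3A1, DCN, LUM and PDGFRB were below background on both arrays. The other, THY1, was above it in HARA only, at 23.8 in HARA-B4 and 63.8 in HARA. Which cells the FAP signal came from was not tested.

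Around TLR3 on chromosome 4, 3 neighbours were above background. The next gene, FAM149A, differed the other way from TLR3, at 76.1 in HARA-B4 and 27.6 in HARA (1.46). CYP4V2 had a difference of -0.82 and UFSP2 of -0.10. On chromosome 20, 7 of the 8 neighbours of MAVS above background had negative differences. The median of the 8 was -0.45, against -0.52 for MAVS, and 0 were called at 2-fold. The negative ones included CDC25B (-0.76), ADISSP (-0.54) and PRNP (-0.45). SMOX was above background in HARA only, at 18.9 in HARA-B4 and 44.5 in HARA. Its bound of at least 1.64-fold lower does not settle whether it reached 2-fold. Lopsided signs occurred around other members too, in some the same way as the member and in others not. Around IRF1, 1 of 6 neighbours above background was negative, with IRF1 itself at 0.19. Around IRF3, 6 of 7 neighbours above background were negative, with IRF3 itself at 0.06. Around STING1, 1 of 6 was negative, with STING1 itself at -0.33. Whether the shift of MAVS and that of its neighbours share a source was not tested.

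**Figure D5:**
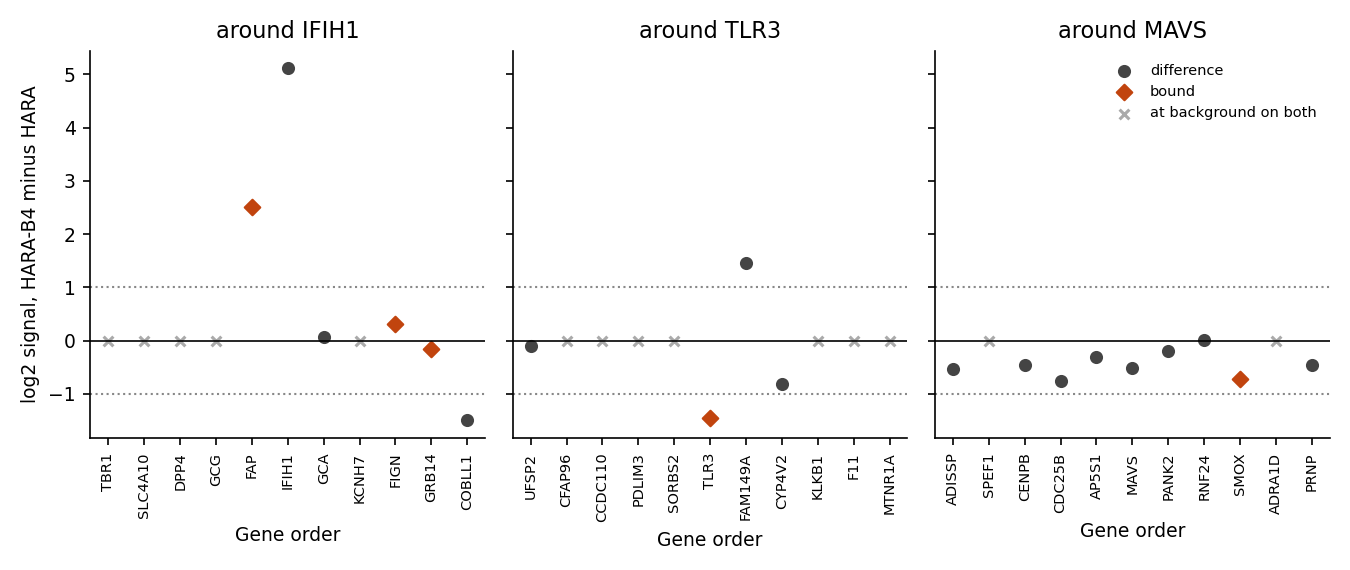
Difference in log2 signal, HARA-B4 minus HARA, of the genes around IFIH1, TLR3 and MAVS in chromosome order, with bounds as diamonds, crosses for genes below background on both arrays and 2-fold as dotted lines. IFIH1 (5.11) and FAP (bound 2.51) stand side by side, TLR3 and FAM149A point in opposite directions, and 7 of the 8 neighbours of MAVS above background lie below 0.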

How the data were processed

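Total RNA of HARA-B4 and of HARA was measured on 1 Affymetrix array each. The authors deposited linear probe set intensities for 54675 probe sets. Per the submitters' processing notes the software was Affymetrix Expression Console. Its version, and how it summarised, background-corrected and scaled the probes, remain not given in the sources used here. After removal of the outer 2% at each end the mean was 116.0 in HARA-B4 and 115.6 in HARA. No further scaling was applied before taking log2, and differences are HARA-B4 minus HARA.

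Probe sets with 1 gene symbol in the platform annotation (41097) were named, and 41043 matched a RefSeq gene (GRCh38.p14) by Entrez ID. Several symbols were listed for 1801 and none for 11777. With 1 array per line, their number limits the precision, no test is possible and no p-value is given. The members and lists were chosen with earlier results of these data known. All members were named, with list genes called at 2-fold (at most 6 a list) or else the 2 brightest, and the 3 genes nearest to IFIH1. Exceptions among list genes above background are marked in the text. Some list genes below background were named too, and neighbours were added after the values were seen. List genes without a uniquely named probe set are not analysed here.

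Alternatives changed the scaling (median, quantile, lowess), the background by 1 on the log2 scale, the probe set rule, a pseudocount of 16, folds of 1.5 and 3, and agreement between probe sets. The procedure was tested on simulated data. Python 3.11.15, pandas 2.3.3 and statsmodels 0.14.6 were used.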

Additional observations from a re-analysis of the deposited data

How the results depend on the processing

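The IFIH1 difference of 5.11 became 4.53 with log2(signal + 16) and 0.23 with its second probe set, an alternative chosen after seeing the data. It became a lower bound with a background 1 higher in log2 units (4.30) and with the mean of all probe sets (1.71). In both the HARA value lay below background and was set to that level. It moved by less than the within-gene SD under the other 5 alternatives. IFIH1 was no longer called, leaving 0 members higher, when all probe sets had to pass and with the second probe set. TLR3 was no longer called, leaving 0 members lower, with the background raised, at 3-fold and with the mean of all probe sets, which put it below background on both arrays. The TLR3 difference was -1.78 with the background lowered, where both arrays passed. It was a bound of -0.44 with the background raised and of -1.06 with log2(signal + 16). The 5 pathway genes called higher became 3 when all probe sets had to pass and 3 with the second probe set, 4 at 3-fold and 4 once _x_at and _s_at probe sets were removed. At 1.5-fold the counts were 7 higher and 4 lower, against 5 and 0 at 2-fold. The differences of the other 7 members above background, and the median over members, moved by less than that SD under every alternative that gave a value. Over all genes, 416 higher and 483 lower calls became 625 and 722 with the background lowered, 1175 and 1269 at 1.5-fold and 141 and 155 at 3-fold. No paired analysis was possible because each line has 1 array. Signals near background limit the sizes given for IFIH1, TLR3, IRF1 and IRF7.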

Other observations

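Of the other members, IRF1 and CGAS each had 1 gene called higher in HARA-B4 among their neighbours above background, PDLIM4 (log2 difference 1.88, 1 of 6 genes) near IRF1 and COL12A1 (1.13, 1 of 8) near CGAS, and DHX58, TBK1, IRF3, IRF7 and STING1 had none called in either direction. Probe sets of COL12A1 above background on both arrays ranged from -0.24 to 1.20 in log2 difference, and those of PDLIM4 from 0.60 to 1.88. The 6 neighbours of STING1 had a median log2 difference of 0.32, against -0.33 for STING1 itself.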
